A study of Mus musculus with 12 samples.

Results

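The 6 genes of cardiac electrical activity followed here in the heart and lung of mice with and without Adam19 were Scn4b, Hcn2, Hcn4, Cacna1d, Cacna1g and Cacna1h. They were chosen by name, and all 6 were found among the 55679 genes of the gene table. RNA was sequenced from the whole heart and the whole lung of 6 adult male mice of strain 129S6/SvEvTac, 3 of them wildtype (WT) and 3 homozygous Adam19 knockouts (KO), which gave 12 libraries in 4 groups of 3. In the KO mice exons 6 and 7 of Adam19, a membrane metalloproteinase gene, were replaced by a tdTomato reporter in every cell of the body, and no mouse was treated. The mouse identifiers share no prefix between genotypes, and the labels do not say what a prefix stands for.

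A heartbeat starts in the sinoatrial node, where pacemaker cells depolarise on their own. HCN channels carry the inward "funny" current that opens at negative potentials, and Hcn4 and Hcn2 encode the subunits best known from the node and from the rest of the heart. T-type calcium channels open at low voltage and join in the late phase of that depolarisation, and their pore subunits are encoded by Cacna1g (Cav3.1) and Cacna1h (Cav3.2). Cacna1d encodes Cav1.3, an L-type calcium channel that opens at lower voltage than the Cav1.2 of working muscle and that is also found in atria, endocrine cells and neurons. Scn4b encodes the beta-4 subunit, a partner of voltage-gated sodium channels in heart, Purkinje fibres and neurons.

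The gene values are on a log2 scale with a scaling between libraries, so that a difference of 1 is a 2-fold difference. The estimated counts of a library, summed over all transcripts, ranged from 17674788 to 35862932, and counting error is largest for the genes near the floor. Adam19 itself checked the genotype labels: its group mean was 9.56 in WT hearts against 6.42 in KO hearts and 9.22 in WT lungs against 3.72 in KO lungs, with no overlap in either tissue. The heart muscle list (Myh6, Tnnt2, Tnni3, Actn2, Ryr2, Pln) summed to 20.6 to 20.9 in the 6 hearts and to 13.2 to 14.6 in the 6 lungs, and the lung epithelium list to 18.8 to 19.1 in the lungs and 6.38 to 10.7 in the hearts. A pair of hearts stood apart in most atrial markers. Myl7, the atrial light chain, was at 12.47 in WT heart 3 and 12.76 in KO heart 2. It was between 14.49 and 15.41 in the other 4, and Myl4 and Sln had the same split. Bmp10 was low in KO heart 2 (7.55), but WT heart 3 was at 10.45, beside 10.64 and 10.71 in the other WT hearts. Nppa was lowest in WT heart 3 (14.03), but KO heart 2, at 15.72, was above every WT heart. The same pair was lowest in adipocyte markers, with Adipoq at 5.93 and 6.78 against 8.24 or more in the others. WT hearts 2 and 3 were also the shallowest of the 6 hearts, at 20381284 and 18392292 summed estimated counts against 31784742 or more in the other 4.

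Of the 6 genes, 5 were higher in heart than in lung and Cacna1d was higher in lung in each of the 6 mice. Within a mouse, the heart value exceeded the lung value by 5.49 to 7.06 for Cacna1g, by 4.89 to 7.27 for Hcn4, by 4.06 to 6.06 for Hcn2, by 1.45 to 3.38 for Scn4b and by 0.87 to 2.82 for Cacna1h, and for Cacna1d the difference ran from -3.73 to -2.02. Each of these 6 sets of differences reached p = 0.031 in an exact two-sided sign-flip permutation test, the smallest value that 6 mice allow. In limma fits over all genes, calls needed an adjusted p under 0.05, a fold of at least 1.5 and a mean of at least 6 in at least 1 group. By that rule 5 of the 6 genes were called between tissues in WT mice, 4 higher and 1 lower in heart, where 50.2% of the 16636 genes tested were called, 20.5% higher and 29.7% lower. In KO mice all 6 were called, 5 higher and 1 lower, against 53.2% of 16802 genes, 22.3% higher and 30.9% lower. The median over all genes tested was -0.30 in WT and -0.28 in KO, so the middle of these tissue differences lay slightly to the lung side.

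**Figure D1:**
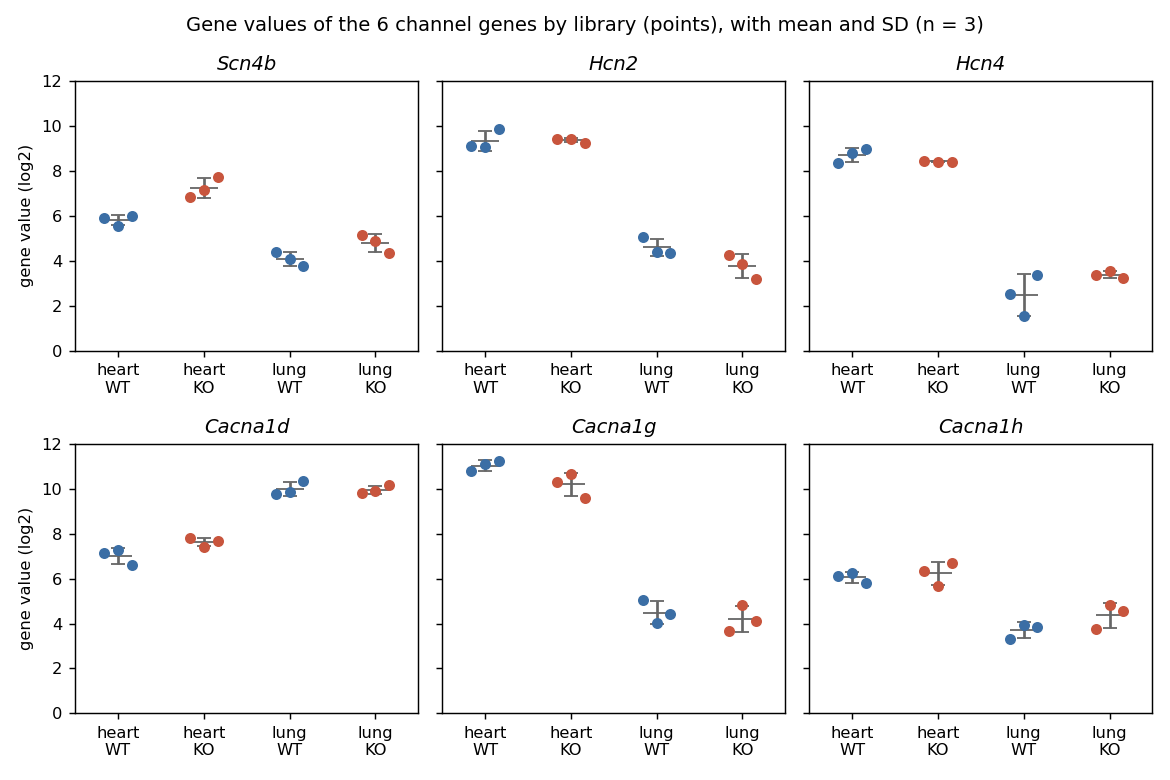
Gene values (log2, y axis) of the 6 channel genes in each of the 12 libraries, blue for WT and red for KO, with the group mean and SD (n = 3) in grey. Cacna1d alone of the 6 sits higher in lung (9.76 to 10.34) than in heart (6.60 to 7.79), and the Scn4b values of the 3 KO hearts (6.86 to 7.74) lie above those of the 3 WT hearts (5.55 to 5.99).

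Cacna1g, the Cav3.1 T-type channel gene (ENSMUSG00000020866, minus strand, chr11:94299217-94365230 in GRCm39, the mm39 assembly), had the highest gene values of the 6 in heart. The WT hearts were at 10.77, 11.09 and 11.23 and the KO hearts at 10.32, 10.64 and 9.61, while the WT lungs were at 5.03, 4.03 and 4.41 and the KO lungs at 3.65, 4.81 and 4.12. All 6 hearts were far above all 6 lungs, and every KO heart was below every WT heart, by as little as 0.13 between the nearest pair. Heart exceeded lung by 6.54 ± 0.29 (SE) in WT and by 6.0 ± 0.35 in KO, with adjusted p = 8.1e-07 and 1.88e-06 in limma. The heart muscle list had a median tissue difference of 6.77 in WT and 7.49 in KO. In WT mice the lung libraries thus held heart muscle transcripts at a similar distance below the heart as Cacna1g, and in KO mice at a larger one. The part of heart muscle transcripts in the low lung values of the channel genes was not tested.

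Cacna1h, the Cav3.2 T-type channel gene (ENSMUSG00000024112, minus strand, chr17:25593259-25652764), was far less abundant in heart. Its values were 6.11, 6.26 and 5.80 in WT hearts, 6.35, 5.68 and 6.67 in KO hearts, 3.29, 3.95 and 3.84 in WT lungs and 3.74, 4.81 and 4.57 in KO lungs. The lowest value of each genotype in heart belonged to WT heart 3 and KO heart 2, the pair with low atrial markers. The tissue difference was 2.36 ± 0.35 in WT (adjusted p = 0.000457, limma) and 1.86 ± 0.38 in KO (adjusted p = 0.00233). Without WT heart 2 the WT difference was 2.26 with adjusted p = 0.00301, but the heart mean fell under 6 and the call was lost. Per kilobase of its canonical transcript, the scale on which genes can be compared, Cacna1g reached 253 ± 39.9 (SD, n = 3) in WT hearts and Cacna1h 8.04 ± 1.31. Cacna1g made up 96.2 to 97.8% of the summed per-kilobase level of both T-type genes in WT hearts and 88.4 to 96.9% in KO hearts. In the lungs, where both genes were near the floor, that share ran from 51.2 to 78.0% in WT and from 41.5 to 49.6% in KO.

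Hcn2 (ENSMUSG00000020331, plus strand, chr10:79552120-79571948) was the more abundant of both pacemaker members in heart. It was at 9.11, 9.07 and 9.86 in WT hearts and at 9.41, 9.41 and 9.26 in KO hearts, against 5.05, 4.38 and 4.36 in WT lungs and 4.27, 3.88 and 3.20 in KO lungs. Heart exceeded lung by 4.75 ± 0.32 in WT (adjusted p = 6.21e-06, limma), which is 26.9-fold, and by 5.58 ± 0.28 in KO (adjusted p = 8.87e-07), or 47.8-fold.

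Hcn4 (ENSMUSG00000032338, plus strand, chr9:58730132-58770458), the subunit that defines the sinoatrial node, was at 8.34, 8.80 and 8.98 in WT hearts and at 8.46, 8.41 and 8.39 in KO hearts. In the lung it was near the floor, at 2.50, 1.52 and 3.38 in WT and 3.38, 3.53 and 3.22 in KO, from 1 to 17 estimated counts a library. The tissue difference was 6.23 ± 0.48 in WT (adjusted p = 1.22e-05, limma) and 5.05 ± 0.21 in KO (adjusted p = 3.3e-07). Of the summed per-kilobase level of Hcn2 and Hcn4, Hcn2 held 69.4 to 77.6% in WT hearts and 77.5 to 79.0% in KO hearts. In the lungs, where both were low, its share ran from 79.6 to 95.2% in WT and from 64.9 to 78.6% in KO.

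Cacna1d (ENSMUSG00000015968, minus strand, chr14:29761896-30213412) had the opposite tissue pattern. The WT lungs were at 9.76, 9.84 and 10.34 and the KO lungs at 9.81, 9.89 and 10.15. The WT hearts were at 7.14, 7.29 and 6.60 and the KO hearts at 7.79, 7.42 and 7.66. Lung exceeded heart 7.82-fold in WT (heart minus lung -2.97 ± 0.25, adjusted p = 2.12e-05, limma) and 5.03-fold in KO (-2.33 ± 0.15, adjusted p = 2.94e-06). Cacna1d was also the only one of the 6 genes that carried the authors' mark for a detected gene, a mark that followed the level in the lung.

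Scn4b (ENSMUSG00000046480, plus strand, chr9:45049595-45065452) was a low gene in both tissues. Its WT hearts were at 5.91, 5.55 and 5.99 and its KO hearts at 6.86, 7.13 and 7.74, with 4.40, 4.10 and 3.79 in WT lungs and 5.14, 4.87 and 4.36 in KO lungs. The tissue difference was 1.72 ± 0.34 in WT (adjusted p = 0.00227, limma), where both group means were under 6 and no call was made, and 2.45 ± 0.31 in KO (adjusted p = 0.000153), which was called. With a pseudocount of 10 or with quantile normalization the WT difference was called as well, at 1.32 and 2.79. In both the call turned on a group mean reaching 6, since the adjusted p and the fold had already passed. Adding 10 raises a low mean by itself, so the pseudocount call does not reflect a larger difference.

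**Figure D2:**
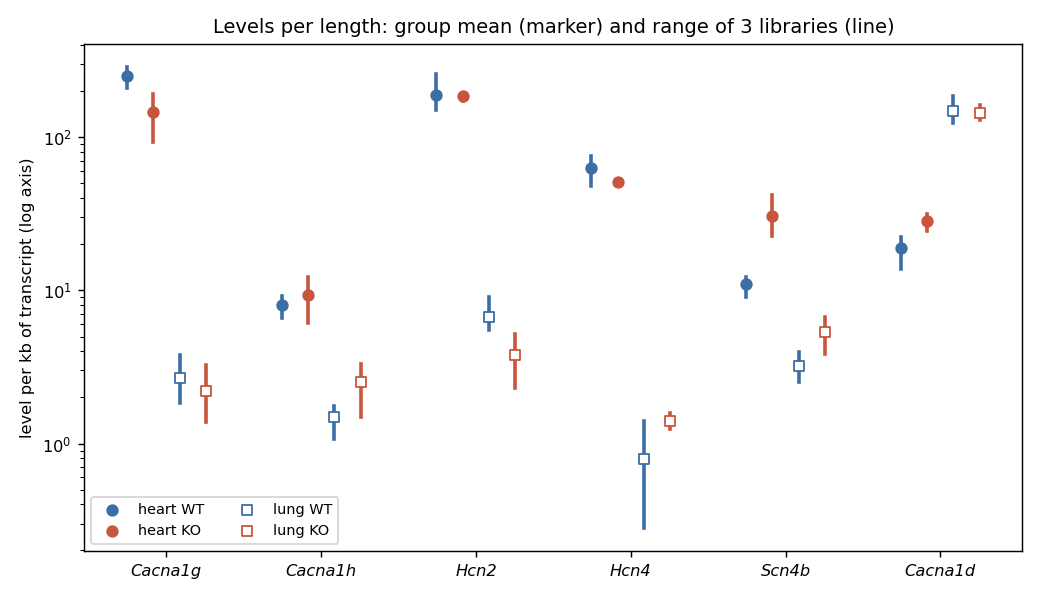
Level per kilobase of the canonical transcript (linear value, log axis) for the 6 genes in the 4 groups, as the group mean (marker) and the range of 3 libraries (line). Cacna1g and Hcn2 lead in heart, where their ranges overlap, and Cacna1d leads in lung.

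The per-kilobase order in WT hearts ran from Cacna1g (253) through Hcn2 (189), Hcn4 (63.3), Cacna1d (18.9) and Scn4b (11) to Cacna1h (8.04). The libraries of Cacna1g and Hcn2 overlapped in that order, as did those of Scn4b and Cacna1h, and the other neighbours did not. In KO hearts Hcn2 (185) stood at the top with Cacna1g (146), and Scn4b (30.6) beside Cacna1d (28.4), each pair with overlapping libraries. In WT lungs Cacna1d (148) was followed at a distance by Hcn2 (6.71), Scn4b (3.22), Cacna1g (2.69), Cacna1h (1.48) and Hcn4 (0.797). Of these, Scn4b and Cacna1g overlapped, as did Cacna1h and Hcn4. In KO lungs Cacna1d (144) led again, and each pair of neighbours among the other 5, between 5.38 for Scn4b and 1.41 for Hcn4, overlapped.

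Between genotypes, none of the 6 genes was called in either tissue. In heart 13 of 15303 genes (0.085%) were called between KO and WT and 7.46% had an unadjusted p under 0.05, and in lung 11 of 16551 (0.0665%) and 5.93%. With no overlap between the 3 KO and 3 WT libraries, the count of the 6 was 3 in heart (Scn4b and Cacna1d higher, Cacna1g lower) and 1 in lung (Hcn2 lower). Over all genes tested 13% had no overlap in heart, 7.82% higher and 5.23% lower in KO, and 12.8% in lung, 6.41% higher and 6.4% lower. For a single gene, 3 mice against 3 cannot go below p = 0.1 in an exact permutation test.

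Scn4b had the widest difference of the 6. The KO hearts exceeded the WT hearts by 1.43 ± 0.27 (SE), which is 2.69-fold, with a 95% interval from 0.81 to 2.04. The unadjusted p was 0.000577 and the adjusted p over all genes 0.224 (limma), above the threshold. The nearest KO and WT hearts were 0.87 apart. In the lung the same gene differed by 0.69 ± 0.38 (adjusted p = 0.839), and 1 KO lung (4.36) was below 1 WT lung (4.40).

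Markers of neurons and of smooth muscle lay in the same direction between these hearts, though none of them was called between genotypes. Of the 7 neuron markers, 6 (Phox2a, Th, Prph, Snap25, Stmn2, Chat) were higher in every KO heart than in every WT heart, and Dbh overlapped. The list summed to 8.15 to 8.40 in WT hearts and 8.87 to 9.39 in KO hearts. Snap25, a synaptic gene, was at 4.85, 4.75 and 2.29 in WT hearts and at 6.76, 6.15 and 6.47 in KO hearts. Th, which starts catecholamine synthesis, was at 0 in WT heart 3. Phox2a, Th and Chat were at 3.35 or lower in every WT heart, under the floor of 3.46 for testing. All 4 smooth muscle markers (Acta2, Myh11, Tagln, Cnn1) also had no overlap, with sums of 13.2 to 13.5 in WT and 14.0 to 14.2 in KO hearts. In the lungs the neuron sums ran the other way, at 9.24 to 9.80 in WT and 9.04 to 9.12 in KO. There 1 of the 7 neuron markers (Stmn2) was lower in every KO lung and 0 were higher. The smooth muscle sums overlapped in lung, at 13.0 to 13.2 in WT and 13.1 to 13.6 in KO. Of these lists, 5 neuron and 4 smooth muscle markers passed the filter in heart, and 0 were called. Over all genes that passed the filter 7.82% were higher in every KO heart than in every WT heart. Th and Chat did not pass it, and Phox2a passed on its KO hearts alone. The count of 6 of 7 neuron markers can therefore not be set against that share. The part of neurons or vessel tissue in the Scn4b difference was not tested, and in whole-organ RNA more cells of a type and more RNA per cell cannot be told apart. Without WT heart 3 and KO heart 2, the pair low in atrial markers, the Scn4b difference was 1.57 (adjusted p = 0.232).

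**Figure D3:**
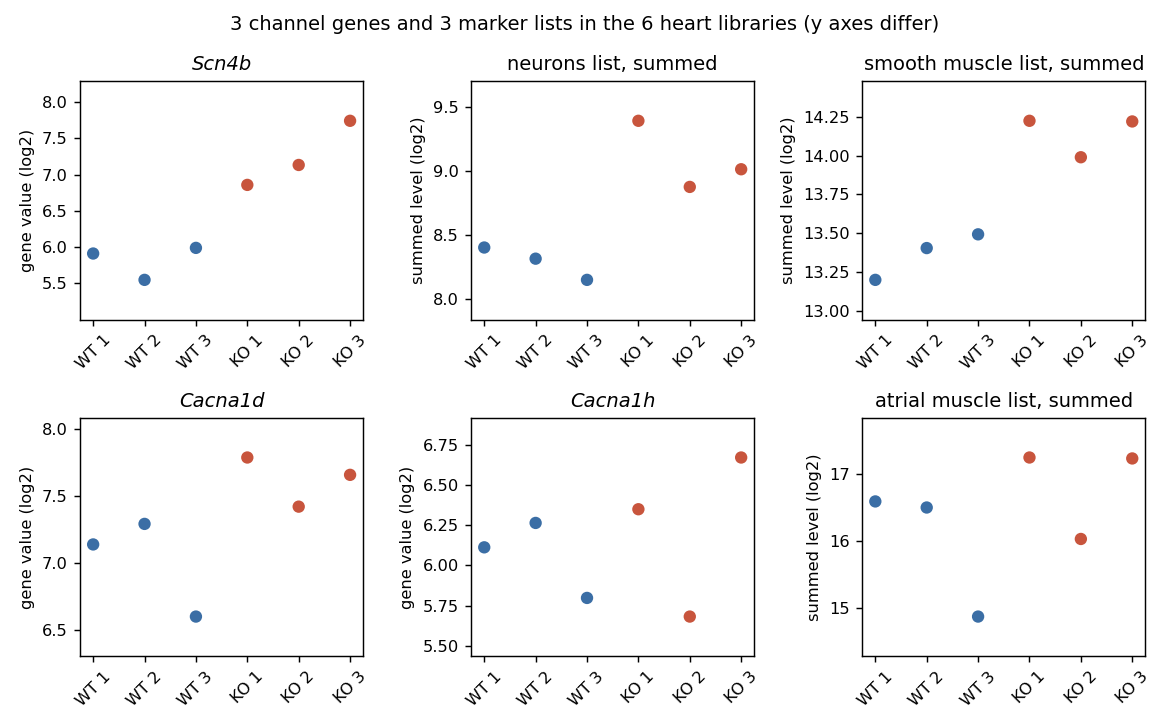
Gene values (log2) of Scn4b, Cacna1d and Cacna1h and summed levels (log2) of the neuron, smooth muscle and atrial muscle marker lists in each of the 6 heart libraries, blue for WT and red for KO, with y axes that differ and do not start at 0. Scn4b and the neuron and smooth muscle sums lie higher in all 3 KO hearts, and WT heart 3 and KO heart 2 are the lowest of their genotype for Cacna1d, Cacna1h and the atrial sum.

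Cacna1g was 0.84 ± 0.25 lower in KO hearts (0.557-fold, 95% interval -1.41 to -0.28, unadjusted p = 0.00823, adjusted p = 0.531, limma). KO heart 3, at 9.61, lay farthest from the WT hearts, and without it the difference was -0.55. Cacna1g (chr11:94299217-94365230) lies on chromosome 11, as does Adam19 (chr11:45946775-46038172), and a link between position and level was not tested. In the lung the difference was -0.30 ± 0.45, and with transcripts summed in place of the authors' gene values it was 0.20.

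Cacna1d was 0.61 ± 0.22 higher in KO hearts (1.53-fold, 95% interval 0.10 to 1.12, unadjusted p = 0.0239, adjusted p = 0.625, limma). WT heart 3 gave the lowest of the WT values and KO heart 2 the lowest of the KO values, as for the atrial markers, and without that pair the difference was 0.51 (adjusted p = 0.419). With transcripts summed in place of the authors' gene values it was 0.29 ± 0.33 (adjusted p = 0.829), and with limma-voom on those sums 0.27 ± 0.33 (adjusted p = 0.852). In the lung Cacna1d differed by -0.03 ± 0.19, with an interval from -0.47 to 0.42.

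The other genes of the set had overlapping libraries in heart. Hcn2 differed by 0.02 ± 0.21 there (interval -0.47 to 0.50), Hcn4 by -0.28 ± 0.18 (-0.69 to 0.13) and Cacna1h by 0.18 ± 0.30 (-0.50 to 0.85). In the lung Hcn2 was lower in all 3 KO mice, by 0.81 ± 0.43 (adjusted p = 0.839, limma), at 6 to 27 estimated counts a library. Cacna1h differed there by 0.68 ± 0.44 (adjusted p = 0.841), by 1.25 with summed transcripts (adjusted p = 0.821) and by 1.39 with limma-voom (adjusted p = 0.779). Hcn4 did not pass the filter on low values in the lung and was not tested there, with means of 2.47 in WT and 3.38 in KO.

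**Figure D4:**
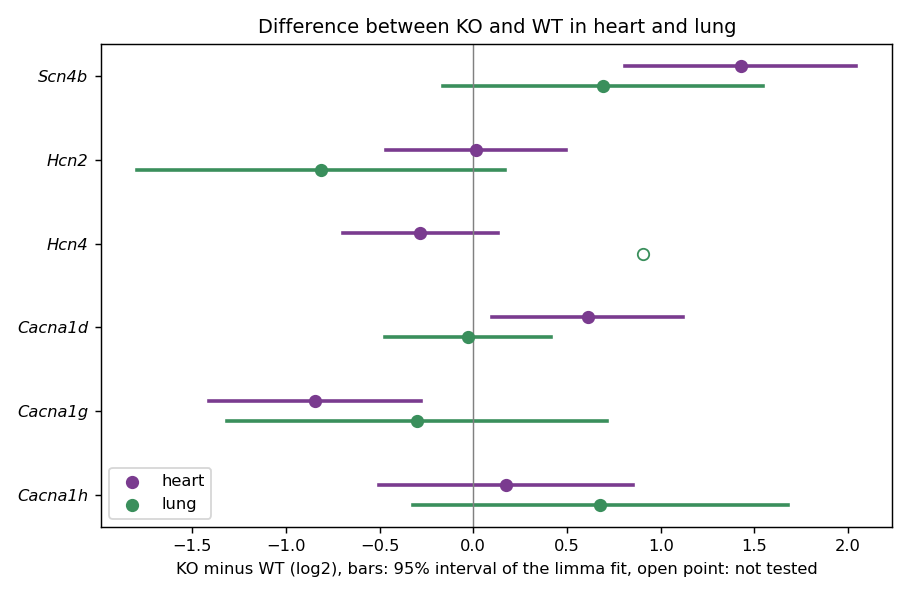
KO minus WT (log2, x axis) for the 6 genes, purple for heart and green for lung, with 95% intervals from limma and an open point for Hcn4 in lung, which was not tested. The heart intervals of Scn4b, Cacna1d and Cacna1g exclude 0 before adjustment over all genes, and no lung interval does.

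The difference between the genotype effects of heart and lung was tested in a model of all 12 libraries, in which 1 of 17666 genes was called (0.00566%) and none of the 6, with 7.88% of all genes at an unadjusted p under 0.05. Hcn4 had the lowest p of the 6, with a heart effect 1.19 ± 0.55 below the lung effect (unadjusted p = 0.0495, adjusted p = 0.634, limma). It passed the filter of this model on its heart values and was too low to be tested in the lung alone. Its heart effect was -0.28, and most of the difference came from the lung effect of 0.91, at 1 to 17 estimated counts a library. Cacna1d had the next lowest p, at 0.64 ± 0.30 (adjusted p = 0.634), which was 0.087 with summed transcripts and 0.074 with limma-voom. For Scn4b the heart effect was 0.73 ± 0.45 above the lung effect, with an interval from -0.24 to 1.71, so that its effects in heart and lung were not shown to differ.

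Cacna1g and Cacna1d are spliced into channels with different loops and membrane segments, and the transcript table allowed shares of single exons to be summed over all full-length transcripts that span them. The shares are Salmon estimates whose own uncertainty is not in the files, and a share is given only where every library of the tissue held at least 50 estimated counts. Exon positions come from GENCODE vM39. Of the 12 Cacna1g transcripts spanning the first exon described here, 11 carry another version number there than in the deposited table, and of the 9 of Cacna1d, 3 do. The exons are shown 5′ to 3′ because they are the parts in which the encoded channels differ. For Cacna1g, capitals mark the alternative bases and lower case 15 bases of the neighbouring exon sequence, and all 3 parts keep the reading frame.
Cacna1g 69-base exon (chr11:94330535-94330603, minus strand), in the loop between the second and the third repeat: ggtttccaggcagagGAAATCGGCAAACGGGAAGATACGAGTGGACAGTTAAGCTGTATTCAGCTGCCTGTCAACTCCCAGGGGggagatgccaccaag
Cacna1g 21-base extension (chr11:94316590-94316610, minus strand), in the loop between the third and the fourth repeat: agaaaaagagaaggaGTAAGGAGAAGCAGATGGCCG
Cacna1g 54-base exon (chr11:94314497-94314550, minus strand), in the same loop: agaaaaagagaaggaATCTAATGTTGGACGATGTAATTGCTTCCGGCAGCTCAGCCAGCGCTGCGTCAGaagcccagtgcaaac

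In the hearts nearly all Cacna1g transcripts carried the 54-base exon, at 100, 93.9 and 95.7% of estimated counts in WT and 98.1, 100 and 100% in KO. The 69-base exon was in 44.3, 64.6 and 58.0% of counts in WT hearts and in 45.2, 68.5 and 77.5% in KO hearts, so both forms were present in each heart. The 21-base extension was the minor form, at 11.5, 19.6 and 23.9% in WT and 24.3, 6.9 and 0% in KO. None of the 3 differed between genotypes beyond its spread, with differences of 2.82, 8.06 and -7.92 percentage points and exact permutation p = 0.4, 0.4 and 0.5. The hearts held 930 to 1849.5 estimated counts over these exons and the lungs 14 to 41 over the whole gene, so no share is given for the lung.

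For Cacna1d, 3 pairs of exons are mutually exclusive, so each full-length transcript holds 1 of a pair. The 2 pairs with the clearer patterns are shown, and capitals mark the bases at which a pair differs, 22 of 104 in the first and 19 of 60 in the other.
Cacna1d 104-base exon, upstream (chr14:29893913-29894016, minus strand), the S6 segment of the first repeat: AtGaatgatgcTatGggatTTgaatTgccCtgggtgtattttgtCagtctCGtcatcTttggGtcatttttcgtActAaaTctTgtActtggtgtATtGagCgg
Cacna1d 104-base exon, downstream (chr14:29893253-29893356, minus strand), same segment: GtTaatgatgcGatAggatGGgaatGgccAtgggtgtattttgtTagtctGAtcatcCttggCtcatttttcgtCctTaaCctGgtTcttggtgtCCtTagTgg
Cacna1d 60-base exon, upstream (chr14:29829743-29829802, minus strand), the S2 segment of the third repeat: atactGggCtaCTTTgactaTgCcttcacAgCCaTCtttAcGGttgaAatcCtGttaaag
Cacna1d 60-base exon, downstream (chr14:29829610-29829669, minus strand), same segment: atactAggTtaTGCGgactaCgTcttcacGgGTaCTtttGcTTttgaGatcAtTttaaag

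The downstream 60-base exon was estimated at 0 in all 6 lungs, where 3 counts would be 0.24 to 0.603% of the 498 to 1251 estimated counts. In the hearts, with 54.3 to 252 estimated counts, it held 10.9, 23.2 and 12.4% in WT and 10.1, 0 and 1.9% in KO. It was higher in heart in 5 of the 6 mice and at 0 in both tissues in KO mouse 2, a mean difference of 9.73 ± 8.31 percentage points (SD, n = 6, exact sign-flip permutation p = 0.0625). The 3 KO hearts were below the 3 WT hearts, by 11.5 percentage points on average (exact permutation p = 0.1). All of it came from 1 transcript, at 0 to 26.1 estimated counts a heart. The upstream 104-base exon was the minor form in both tissues, at 8.7, 14.9 and 13.2% in WT lungs and 17.9, 17.4 and 24.4% in KO lungs. The KO lungs were all above the WT lungs, by 7.60 percentage points on average, at p = 0.1, the smallest that an exact permutation test of 3 against 3 allows. In the hearts it ran from 0 to 18.6%, and heart and lung of the same mice differed by -7.95 ± 10.3 points (exact p = 0.156). In the remaining pair, of 84 bases, the downstream exon ran from 0 to 23.7% in the hearts and from 0 to 8.6% in the lungs (exact p = 0.344). The start site farthest upstream, used by 1 full-length transcript of 9, gave 46.0 to 80.0% of the full-length counts in the lungs and 49.8 to 88.6% in the hearts.

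**Figure D5:**
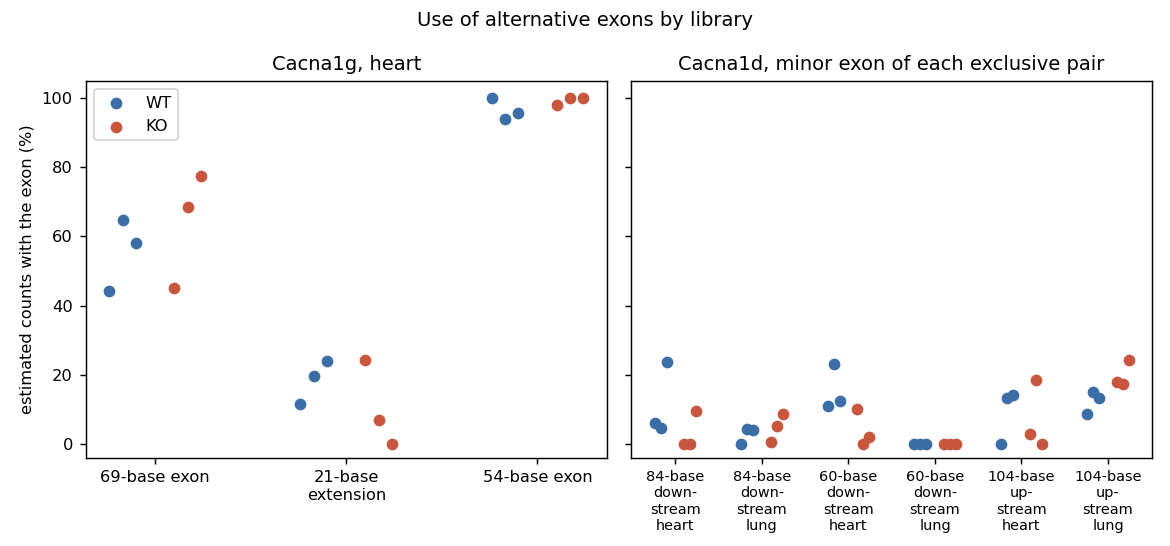
Share of estimated counts (%, y axis) that held each alternative exon, by library, blue for WT and red for KO, for Cacna1g in the 6 hearts on the left and for the less used exon of each of the 3 exclusive Cacna1d pairs in hearts and lungs on the right. The downstream 60-base exon of Cacna1d is at 0 in all 6 lungs and between 0 and 23.2% in the hearts.

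In fits over all transcripts, none of the transcripts of the 6 genes was called between genotypes, among 14 tested in heart and 12 in lung. Over all transcripts 0.0625% and 0.1% were called. Between tissues 6 of 14 were called in WT, 5 higher and 1 lower in heart (29.0% of all transcripts), and 6 of 13 in KO, 4 higher and 2 lower (37.2%). Hcn2 had another annotated transcript (ENSMUST00000020581), to which lung counts of the gene were assigned. The heart counts came from ENSMUST00000099513, 6.21 ± 1.35 higher in heart in WT mice (adjusted p = 0.0148, limma). In KO mice that transcript was 9.38 ± 0.32 higher (adjusted p = 2.39e-05, limma). Hcn2 as a whole differed by 4.75 and 5.58, so the larger transcript differences also hold how its few lung counts were assigned.

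Other genes of the same channels gave the setting for the 6. Their calls between tissues are to be read beside those over all genes tested. These were 50.2% in WT mice, 20.5% higher and 29.7% lower in heart, and 53.2% in KO mice, 22.3% higher and 30.9% lower. Of 12 further sodium channel subunits, 8 were tested between tissues in WT mice, and 2 were called higher and 3 lower in heart, the same counts of calls as in KO mice. Scn4a, the skeletal muscle pore, was 5.09 ± 0.28 higher in heart in WT mice (limma). Scn3b, the beta-3 subunit, had the reverse pattern of Scn4b, with 5.32 in WT hearts and 11.3 in WT lungs, a difference of -5.94 ± 0.18. Scn7a and Scn3a were lower in heart, at -3.24 and -3.17. The list had no call between genotypes in either tissue. Its median KO minus WT was 0.32 in heart and 0.23 in lung, beside 0.03 and 0.01 over all genes. Of the 9 genes tested in heart 5 were above 0 and 4 below, and of the 7 in lung 5 were above and 2 below.

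Of 5 further HCN subunits and partners, 4 were tested between tissues and 3 called in each genotype, 1 higher and 2 lower in heart. Irag1, a partner of HCN4, was 1.78 ± 0.29 higher in heart in WT mice (adjusted p = 0.000775, limma). Irag2, another partner, was 2.53 ± 0.36 lower in heart. Kcne2, an accessory potassium channel subunit, was 7.48 ± 0.39 lower in heart, where its WT mean was 0.29. None of the 3 tested in heart was called between genotypes, with a median of 0.41.

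Of 23 calcium channel subunits, 15 were tested between tissues, with 7 higher and 2 lower in heart in WT mice and 7 higher and 4 lower in KO mice. Cacna1c, the Cav1.2 pore, was at 13.9 in WT hearts and 4.12 ± 0.16 above the lung (adjusted p = 5.11e-07, limma), the opposite direction to Cacna1d. The auxiliary subunits Cacnb2 and Cacna2d2 were 3.70 ± 0.18 and 4.16 ± 0.63 higher in heart. Cacna1e was 3.53 ± 0.31 lower in heart in WT mice. Cacna1i, the remaining T-type gene, and Cacna2d4 were called lower in heart in KO mice, at -4.57 ± 0.67 and -5.88 ± 0.34. In WT mice they differed by -2.46 and -3.38 (adjusted p = 0.0319 and 0.000901, limma), and no call was made because the group means were under 6. The difference between the genotype effects of both tissues was not called for any gene of the list. Between genotypes the list had no call, with medians of 0.13 in heart and 0.07 in lung.

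Of 11 genes of the sinus node and conduction system, 9 were tested between tissues in WT mice, with 4 higher and 2 lower in heart, and 10 in KO mice, with 6 and 3. Cntn2, a cell adhesion gene of the conduction system, was 6.51 ± 0.38 higher in heart in WT mice (adjusted p = 2.78e-06, limma). Tbx18, a transcription factor of sinus node development, was 3.14 ± 0.43 higher, and Shox2, another, was called in KO mice, at 4.08 ± 0.58. In WT mice Shox2 differed by 2.83 ± 0.74 (adjusted p = 0.00999, limma), and no call was made because both group means were under 6. Smoc2 was 2.39 ± 0.14 higher in heart. Tbx3, the nodal repressor, and Vsnl1 were lower in heart, at -2.68 and -2.85. None was called between genotypes, with a median of 0.24 in heart and -0.11 in lung.

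By the root mean square of the difference between profiles over the 12 libraries, each centred on its own mean, the genes nearest to Hcn2 were Jph2 (0.281), Csdc2 (0.285) and Kcnj12 (0.289). Those nearest to Cacna1g were Cnga3 (0.366), Mypn (0.421) and Ush1c (0.444), and to Hcn4 Gm12002 (0.346), Gm49490 (0.417) and Myadml2 (0.427). Cacna1d had the closest neighbours, Tnfrsf19 (0.142), Dock10 (0.163) and Tes (0.185). Spata6l (0.207), Agt (0.245) and Armh4 (0.273) were nearest to Cacna1h. For Scn4b they were 1810021B22Rik (0.406), Mt1 (0.429) and Uchl1 (0.431).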

How the data were processed

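The authors prepared stranded total-RNA libraries from whole heart and lung and quantified them, per the labels with cutadapt, STAR, Salmon and limma 3.42.2 on mm39. The deposited gene values are log2 with a scaling between libraries, and the deposited transcript values are log2 of 1 plus an estimated count. For genes with a single transcript, at least 94.7% of values equalled the transcript value plus 1 constant per library (-0.63 to 0.80) within 0.01. The method of scaling is not given in the sources used here. Columns without a sample numbered 0.

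Groups were taken from the labels. Genes with at least 10 counts on this scale in 3 libraries of a fit were tested with limma 3.58.1 in R 4.3.3 (Benjamini-Hochberg over all genes tested), with the thresholds of the study's methods. Where a group had fewer than 3 libraries left, 2 libraries were enough, so call counts of those runs also reflect a changed filter. Exact permutation tests were two-sided. Intervals are 95% intervals of the fit. The code was tested on simulated data. Levels per kilobase were 2 to the gene value, minus 1, over the length of the canonical transcript in GENCODE vM39, the same assembly with a later annotation.

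The members, lists and marker genes were chosen with earlier results of these data known. Named list genes were those called in any tissue or genotype comparison, up to 4 per list and comparison by size, plus the list gene highest in heart. A few listed genes are not reported here and were left out of the counts and sums. Nearest genes were the first 3 by root mean square difference. Hearts and lungs were paired by mouse identifier. The deviations of heart and lung from their group means correlated within a mouse at -0.07 to 0.14 over 17666 genes. Nothing in the labels names separate extraction batches. Alternatives covered filters, pseudocount, scaling, summed transcripts, limma-voom, the variance trend, 1 model of all libraries, the mouse as a block and each library left out.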

Additional observations from a re-analysis of the deposited data

How the results depend on the processing

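None of the 6 genes was called between genotypes, or for the difference between the genotype effects of heart and lung, under any alternative run. Between tissues, Cacna1g, Cacna1d, Hcn2 and Hcn4 kept direction and call under every alternative that tested them. Of 515 alternative values of the 6 genes' differences, 497 kept direction and side of the thresholds.

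Those that turned were small. In heart, Hcn2 was -0.0052 with quantile normalization and -0.031 with libraries shifted to 1 median, from -0.12 to 0.27 with each library left out, and Cacna1h from -0.043 to 0.45. Hcn4 was 0.081 without WT hearts 2 and 3, an alternative chosen after seeing the data that leaves 1 WT heart, assumed to vary like the KO hearts. In lung, Cacna1d was 0.20 with summed transcripts and 0.19 with limma-voom, and -0.14 to 0.15 with each library left out, and Cacna1g was 0.20 and 0.27. The Cacna1d 104-base share in heart ran from -7.84 to 1.45 points with each mouse left out.

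Requiring 10 counts in every library tests fewer genes: it left 7 calls in heart and 1 in lung between genotypes, 3 of the 6 genes called between tissues in WT, and 1 and 2 of their transcripts in WT and KO. With each library left out, calls between genotypes in heart ran from 10 to 21 (21 without KO heart 2) and those for the difference between the genotype effects of both tissues from 0 to 6. Without WT heart 3 and KO heart 2, also chosen after seeing the data, they were 31 and 9. For the difference they were 4 with a pseudocount of 10, 0 with libraries at 1 median, 2 with limma-voom, 4 without the variance trend, 2 with the replicate block and 5 without WT hearts 2 and 3. The cause was not tested. With the mouse as a block, the 6 genes kept their calls between tissues, and calls over all genes between tissues were 8295 in WT and 8904 in KO, against 8358 and 8934 without the block. At 1 to 45 estimated counts a library, small differences of the 5 genes other than Cacna1d were not detectable in lung.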
